A study of Mus musculus with 16 samples.

Results

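FOXO transcription factors and their fasting-linked targets were followed in B6MyC-CaP tumours of mice given enzalutamide, alternate-day fasting, or both. The set has 10 genes, taken by name and not by a threshold on measured values, though with earlier results of these data known: the factors Foxo1 and Foxo3, and the targets Fbxo32, Bcl6, Bcl2l11, Sesn1, Ccng2, Cdkn1b, Txnip and Klf15. All 10 were found among the 55414 gene IDs of the count table, and all 10 passed the filter on low counts that left 18946 genes to test. B6MyC-CaP is 1 mouse prostate cancer line from the Hi-MYC model, in which a MYC transgene is active in the prostate, and its tumours were grown subcutaneously in male C57BL/6 mice implanted at 6 weeks of age. The 16 tumours form 4 groups of 4. Vehicle mice ate normal chow freely. ENZ mice ate the same way and received enzalutamide, an antiandrogen drug, at 20 mg/kg by gavage every day. ADF mice alternated 24 hours without food and 24 hours of free feeding. ADF+ENZ mice had the feeding cycle and the drug together. The length of treatment, and whether the ADF tumours were taken after a fasted or a fed day, are not given in the sources used here. Nothing in the labels says that the 4 tumours of a group came from separate mice, so p-values measure only the spread between these samples.

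FOXO proteins sit at the end of the insulin pathway. When insulin and growth factors are high, PI3K activates the kinase AKT, which phosphorylates FOXO proteins and keeps them out of the nucleus, and when they are low, as in fasting, FOXO proteins enter the nucleus and switch on genes that slow the cell cycle, favour cell death, break down protein and save nutrients. FOXO activity is therefore set largely on the protein, which was not measured here. In prostate tumours this pathway and androgen signalling are known to restrain one another.

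The libraries held 10072489 to 25505655 reads counted to genes. In the ADF group 30.3 to 36.7% of reads fell in no annotated feature, against 21.2 to 27.9% in the other 12 libraries, with no overlap. The ADF group was also apart in reads not uniquely aligned (4.10 to 5.03%, against 6.51 to 7.96%) and in ambiguous reads (2.71 to 3.02%, against 3.44 to 5.26%). ADF+ENZ replicate 3 stood apart on the first principal component (27.4% of the variance), at 39.7 against -22.1 to 17.6 in the other libraries. It also had the fewest counted reads and the largest share of unaligned reads, 16.7% against at most 12.2% in the others. Named changes on ADF or ADF+ENZ are therefore given below with the no-feature share of reads as a covariate, or without ADF+ENZ replicate 3, where this ended the call. With the covariate 6 of all genes were called in ADF against Vehicle, 0 in ADF+ENZ against ADF and 0 in the interaction, so that the list counts given below for the last 2 all become 0. As for the labelled cell type, the luminal keratin Krt8 (501 CPM, the gene's reads relative to the TMM-scaled size of its library) and the prostate factor Hoxb13 (9.15 CPM) were present. Other prostate markers were near 0: the secretory gene Pbsn had 0 counts in all libraries together, which allows up to 3 counts, and Msmb had 8.

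The 10 genes covered a wide range of levels. Per kilobase of exon, the means over all 16 libraries ran from 37.1 CPM per kb for Txnip through 30.9 for Cdkn1b, 24.9 for Foxo3, 21.3 for Ccng2, 14.6 for Bcl2l11, 7.79 for Bcl6, 7.22 for Sesn1, 5.04 for Fbxo32 and 3.17 for Foxo1 to 0.316 for Klf15. Foxo3 thus stood well above Foxo1. The spread also differed: the highest library exceeded the lowest by a factor of 1.54 for Foxo3, 4.12 for Txnip and 4.70 for Klf15, with the other 7 genes between 1.61 and 2.87. In total 12 changes passed the test over the 6 comparisons, and they were all in 4 genes, Ccng2, Bcl2l11, Bcl6 and Fbxo32. Neither Foxo1 nor Foxo3 was among them.

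**Figure D1:**
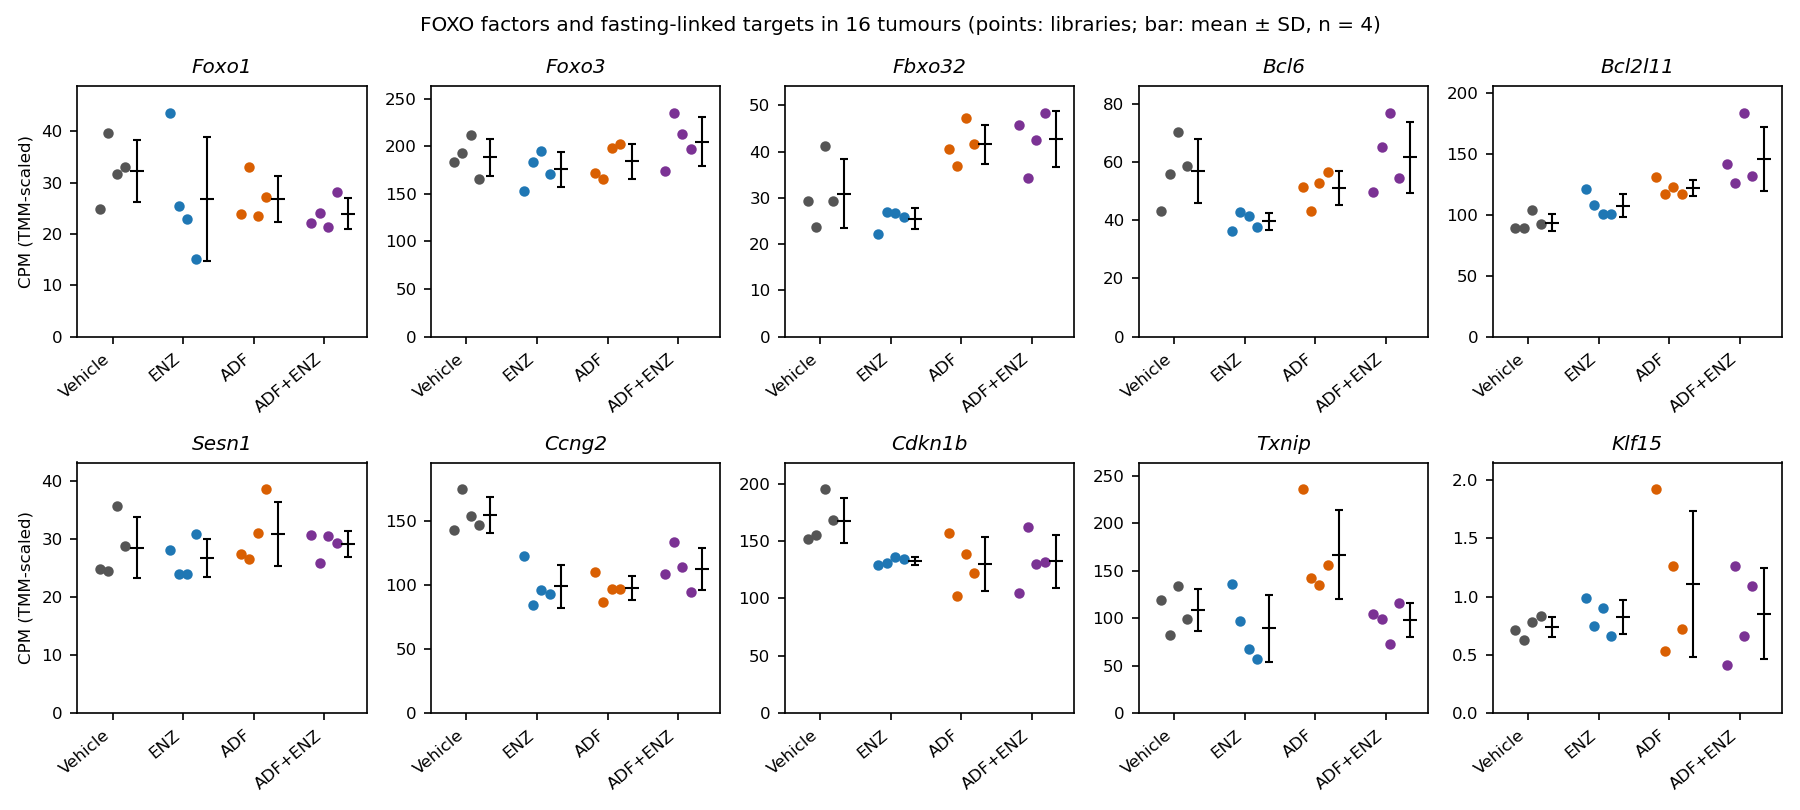
TMM-scaled CPM (vertical axes, each from 0) of the 10 genes in the 4 groups; each point is 1 library and the bar beside it is the mean ± SD of 4. Ccng2 lies lower in all 3 treated groups than in Vehicle, Bcl2l11 is highest in ADF+ENZ, and Bcl6 is lowest in ENZ, while the points of Foxo3 and Sesn1 overlap in every pair of groups.

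ENZ against Vehicle had 2 of the 10 genes lower, Ccng2 and Bcl6, and 0 higher, where 5.43% of all 18946 genes were called and 3.62% were called lower. The median of the 10 was -0.28, against 0.01 for all genes tested. The summed level of 7 fibroblast markers was 9346 to 10355 CPM in ENZ and 10926 to 12721 in Vehicle, with no overlap, although 0 of the 7 were called (median -0.28). Of 8 endothelial markers 2 were called higher (median 0.20), with overlapping sums of 349 to 712 and 374 to 611 CPM. The part of these cells in the lower values was not tested.

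ADF against Vehicle had 1 of 10 higher, Bcl2l11, and 1 lower, Ccng2, where 9.01% of all genes were called; the median was 0.04 against 0.01. With the no-feature share as a covariate, 0 of the 10 and 6 of all genes were called, against 1707 without it. ADF and this share move together, and they cannot be told apart with these libraries.

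ADF+ENZ against Vehicle had 2 of 10 higher, Bcl2l11 and Fbxo32, and 1 lower, Ccng2, where 12.5% of all genes were called; the median was 0.07 against 0.00. ADF+ENZ against ENZ had 3 of 10 higher, Fbxo32, Bcl6 and Bcl2l11, and 0 lower, where only 1.09% of all genes were called and 0.813% were called higher. The median was 0.16 against -0.01. The fibroblast marker sum was again apart, at 11406 to 13366 CPM in ADF+ENZ and 9346 to 10355 in ENZ, with 1 of 7 called higher (median 0.43), and its part was not tested. Without ADF+ENZ replicate 3, 0 of the 10 and 20 of all genes were called there, against 206 with it; against Vehicle 1202 of all genes were then called, in place of 2369.

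ADF+ENZ against ADF had 0 of 10 called by edgeR, where 16.3% of all genes were called, with 2 of the 10 at an unadjusted p under 0.05 and 1 called by DESeq2 (Txnip). The median was 0.03 against -0.02. The interaction had 2 of 10 higher, Ccng2 and Bcl6, and 0 lower, where 3.1% of all genes were called and 2.18% were called higher; the median was 0.19 against -0.02.

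**Figure D2:**
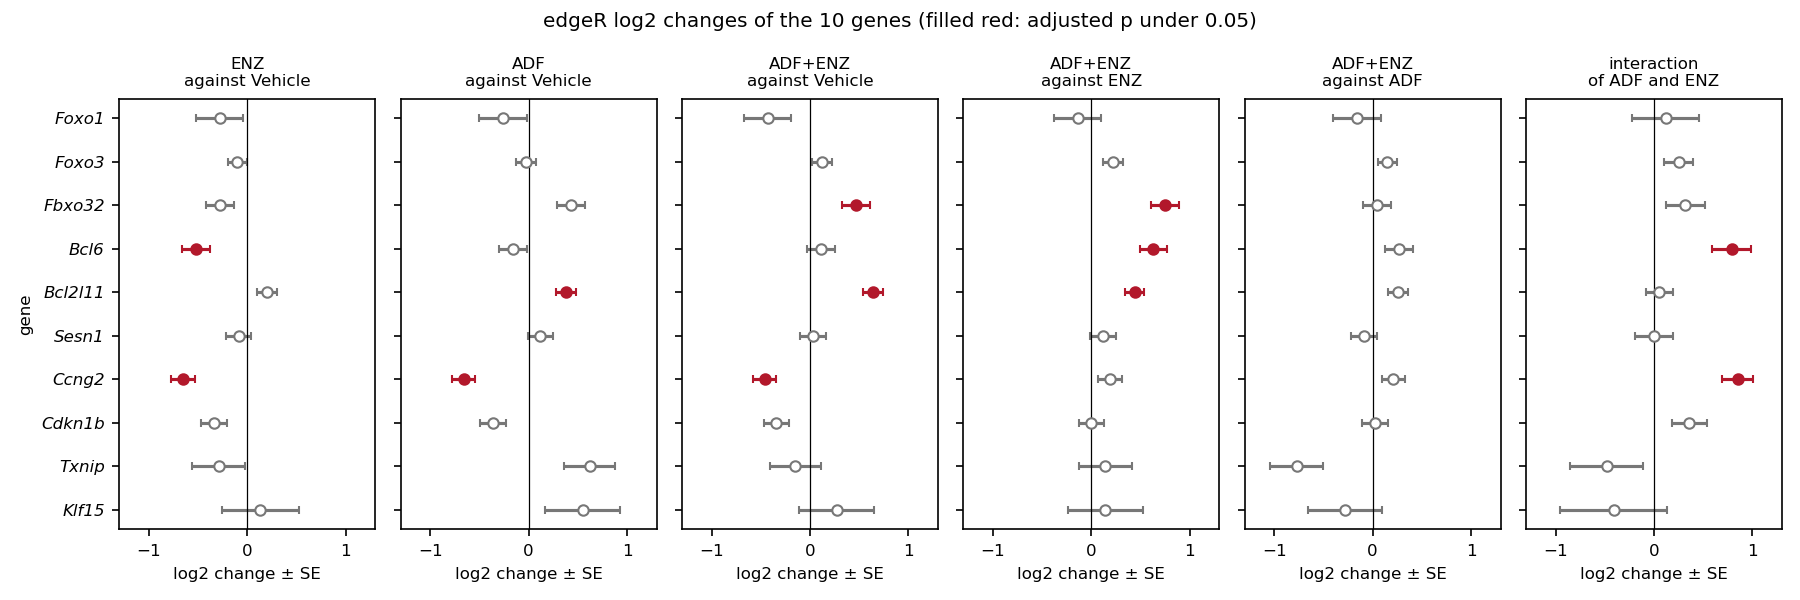
Log2 change with its standard error (horizontal axes) of the 10 genes in the 5 pairwise comparisons and in the interaction, from edgeR on all 16 libraries; filled red points have an adjusted p under 0.05. Ccng2 is red on the left in the 3 panels against Vehicle, Fbxo32, Bcl6 and Bcl2l11 are red on the right in ADF+ENZ against ENZ, and no point is red in ADF+ENZ against ADF.

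Among the factors, Foxo1 stood at 24.8, 39.6, 31.7 and 33.0 CPM in Vehicle replicates 1 to 4, at 43.6, 25.5, 23.0 and 15.2 in ENZ, at 23.8, 33.0, 23.4 and 27.2 in ADF and at 22.1, 24.0, 21.4 and 28.2 in ADF+ENZ. The ENZ libraries spanned the whole range of the gene, and the ranges of all groups overlapped. The log2 change against Vehicle was -0.28 (SE 0.24) in ENZ, -0.26 (SE 0.24) in ADF and -0.43 (SE 0.24) in ADF+ENZ, with edgeR adjusted p of 0.559, 0.525 and 0.27.

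Foxo3 stood at 183, 193, 212 and 165 CPM in Vehicle, 153, 183, 195 and 171 in ENZ, 172, 165, 198 and 202 in ADF, and 174, 235, 213 and 197 in ADF+ENZ. Its 4 ranges overlapped as well. The largest of its pairwise differences, ADF+ENZ against ENZ, was 0.22 (SE 0.10) on the log2 scale (adjusted p = 0.311 by edgeR). Of the 4 FOXO genes, 3 were tested (Foxo6 had 97 counts in all libraries and did not pass the filter), and 0 of 3 passed the test in any of the 6 comparisons, also under every alternative run for Foxo1 and Foxo3.

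Ccng2 encodes cyclin G2, an atypical cyclin that holds cells back from dividing and is a known direct FOXO target. It stood at 143, 175, 154 and 147 CPM in Vehicle, 123, 84.5, 96.0 and 93.1 in ENZ, 110, 87.1, 96.8 and 96.9 in ADF, and 109, 134, 114 and 94.5 in ADF+ENZ. Every Vehicle library lay above every library of the other 3 groups, and those 3 groups overlapped one another. The means were 155 ± 13.9, 99.0 ± 16.4, 97.8 ± 9.52 and 113 ± 16.3 (SD, n = 4) in the same order.

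Ccng2 fell by 0.65 on the log2 scale (SE 0.12) in ENZ, by 0.66 (SE 0.12) in ADF and by 0.46 (SE 0.12) in ADF+ENZ, all against Vehicle, with edgeR adjusted p of 0.00279, 0.00248 and 0.0152. These 3 comparisons share the 4 Vehicle libraries, which also enter the interaction. The mean of ADF+ENZ was not below that of either treatment alone. In the comparisons without Vehicle, ADF+ENZ differed by 0.19 from ENZ (SE 0.12) and by 0.21 from ADF (SE 0.12). Neither passed the test (edgeR adjusted p = 0.462 and 0.226). The change that ADF made in ENZ-treated mice differed from that in untreated mice by 0.85 (SE 0.16) on the log2 scale (adjusted p = 0.0128 for the interaction in edgeR). In every fit that left out 1 library, all 4 of these calls held, with log2 values of -0.76 to -0.58, -0.73 to -0.60, -0.55 to -0.38 and 0.76 to 0.97. With the no-feature share as a covariate the ADF value was -0.68 (SE 0.20, adjusted p = 0.261) and the interaction 0.87 (SE 0.26, adjusted p = 0.818), so that the sizes stayed and the errors grew.

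Cdkn1b encodes p27, an inhibitor of cyclin-dependent kinases. It stood at 152, 155, 195 and 168 CPM in Vehicle, 129, 131, 136 and 134 in ENZ, 157, 102, 139 and 122 in ADF, and 105, 162, 130 and 132 in ADF+ENZ. The ENZ libraries were tightly grouped and all below the Vehicle libraries, while the other groups overlapped Vehicle. The log2 differences from Vehicle were -0.34 (SE 0.13) in ENZ, -0.36 (SE 0.13) in ADF and -0.34 (SE 0.13) in ADF+ENZ, and none passed the test (edgeR adjusted p = 0.131, 0.0755 and 0.0853). Leaving out ADF replicate 1 brought the ADF value past the threshold at -0.47, leaving out ADF+ENZ replicate 2 did so for ADF+ENZ at -0.45, and limma-voom gave -0.38 there (adjusted p = 0.0491).

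Promoters were examined for Ccng2, Bcl2l11, Bcl6 and Txnip, chosen after their values were seen as the genes in the RefSeq table whose ranges did not overlap in 2 or more pairwise comparisons. The windows are those of the GRCm38.p6 assembly, 250 bases before to 50 after the transcription start; 9 of the 10 genes matched (12 windows), and Fbxo32 had none. Both strands were searched for the FOXO core TGTTTAC, the longer FOXO element TTGTTTAC, the insulin response core CAAAACA, the E-box CACGTG and the glucocorticoid receptor element. The 250 bases before the start are shown 5′ to 3′ on the gene's strand, with matches in capitals; Bcl2l11 and Bcl6 each have a second window in the table, which held none of the motifs in its 250 bases and is not shown.
Ccng2, chr5:93267323-93267572, plus strand: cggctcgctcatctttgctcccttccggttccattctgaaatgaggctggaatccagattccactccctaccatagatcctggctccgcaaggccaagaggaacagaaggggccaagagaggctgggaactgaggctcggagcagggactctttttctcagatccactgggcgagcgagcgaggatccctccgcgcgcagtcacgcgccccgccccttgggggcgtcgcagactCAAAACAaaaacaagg
Bcl2l11, chr2:128125788-128126037, plus strand: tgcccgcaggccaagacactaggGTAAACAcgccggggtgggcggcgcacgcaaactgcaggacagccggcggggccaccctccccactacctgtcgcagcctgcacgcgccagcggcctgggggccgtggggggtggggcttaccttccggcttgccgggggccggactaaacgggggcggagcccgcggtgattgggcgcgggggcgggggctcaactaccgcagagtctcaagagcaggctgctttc
Txnip, chr3:96557707-96557956, plus strand: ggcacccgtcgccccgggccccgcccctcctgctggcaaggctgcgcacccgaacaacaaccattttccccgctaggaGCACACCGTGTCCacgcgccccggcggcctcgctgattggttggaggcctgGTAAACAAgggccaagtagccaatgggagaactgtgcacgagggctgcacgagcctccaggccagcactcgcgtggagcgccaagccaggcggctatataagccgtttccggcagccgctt
Bcl6, chr16:23988853-23989102, minus strand: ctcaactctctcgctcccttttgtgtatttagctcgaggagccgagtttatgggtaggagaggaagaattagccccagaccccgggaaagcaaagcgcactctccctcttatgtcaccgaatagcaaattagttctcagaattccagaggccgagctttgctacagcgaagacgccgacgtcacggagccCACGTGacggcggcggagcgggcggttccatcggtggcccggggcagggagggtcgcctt

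The capitals in Ccng2 are the insulin response core, 16 bases before the start. Those in Bcl2l11 are the FOXO core on the other strand, 227 bases before the start. In Txnip the first capitals are the glucocorticoid receptor element, 172 bases before the start, and the second are the longer FOXO element on the other strand, 121 bases before it, which contains the core. In Bcl6 they are an E-box at 60 bases. Of 32851 windows in the table, 3.65% held the FOXO core, 1.23% the longer element, 6.28% the insulin response core, 7.15% the E-box and 0.475% the glucocorticoid receptor element. Among the 12 windows of these genes 3 held the FOXO core, in Bcl2l11, Txnip and Sesn1, where the match lies after the start. A match is a description of these letters; binding was not measured.

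Bcl2l11 encodes BIM, a BH3-only protein that starts mitochondrial cell death and whose FOXO-dependent induction follows loss of growth factors. It stood at 89.3, 89.4, 104 and 92.3 CPM in Vehicle, 121, 108, 101 and 101 in ENZ, 131, 117, 123 and 117 in ADF, and 142, 126, 184 and 132 in ADF+ENZ. The group means were ordered the same way, from 93.6 ± 6.74 through 108 ± 9.54 and 122 ± 6.39 to 146 ± 25.9 (SD, n = 4). Both fasted groups lay above every Vehicle library, whereas neighbours in the order (Vehicle and ENZ, ENZ and ADF, ADF and ADF+ENZ) overlapped.

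Bcl2l11 rose in ADF+ENZ against Vehicle by 0.64 on the log2 scale (SE 0.10, adjusted p = 0.000746 by edgeR), a 1.56-fold difference. That call held in all 8 fits that left out 1 library and in all 8 other settings, and was 0.51 (adjusted p = 0.00202) without ADF+ENZ replicate 3, which had the highest value. In ADF alone the gene rose by 0.38 (SE 0.10, adjusted p = 0.0265). This call was lost on leaving out ADF replicate 1 (0.35), 3 (0.38) or 4 (0.40) or Vehicle replicate 1 (0.35), 2 (0.36) or 4 (0.37), with adjusted p up to 0.075, and with the covariate (0.57, SE 0.16, adjusted p = 0.237). Against ENZ, the ADF+ENZ value rose by 0.44 (SE 0.10, adjusted p = 0.0423), a call lost without ADF+ENZ replicate 1 (0.45) or 3 (0.30) or ENZ replicate 2 (0.44), 3 (0.40) or 4 (0.41), with the covariate (0.37, adjusted p = 0.13) and with these 2 groups alone (0.43, adjusted p = 0.129). The value in ENZ alone was 0.20 (SE 0.10, adjusted p = 0.274), and the interaction was 0.05 (SE 0.14, adjusted p = 0.864).

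The other BCL2 family genes gave a frame for Bcl2l11. Of 14 tested, 1 was higher and 1 lower in ENZ, 1 higher and 2 lower in ADF, and 1 higher and 2 lower in ADF+ENZ, each against Vehicle, and the family medians lay between -0.09 and 0.04 over the 5 pairwise comparisons. The higher gene was Bmf in all 3 cases. Bmf encodes another BH3-only protein and is close in role to BIM. Its mean was 42.9 ± 2.56 CPM for Vehicle, 61.8 ± 11 for ENZ, 58.1 ± 4.13 for ADF and 74.4 ± 4.03 for ADF+ENZ (SD, n = 4), with each treated group above all Vehicle libraries. It rose by 0.53 (SE 0.10), 0.44 (SE 0.10) and 0.79 (SE 0.10) on the log2 scale, with edgeR adjusted p of 0.00471, 0.0149 and 0.000125. All 3 calls held in every fit without 1 library; with the covariate the ADF value was 0.50 (adjusted p = 0.323). Mcl1, a survival member, fell by 0.31 (SE 0.0682) in ADF (adjusted p = 0.0114 by edgeR; -0.24 and 0.457 with the covariate). The lower level of Mcl1 was not limited to ADF. All ENZ libraries (219 to 240 CPM) and all ADF+ENZ libraries (224 to 247) also lay below the Vehicle range of 273 to 290. The log2 ratios of these means to the Vehicle mean were -0.29 and -0.26, given as a description. Bid, which links death receptors to mitochondria, fell by 0.69 (SE 0.11) in ADF+ENZ against Vehicle, from 45.5 to 28.1 CPM (adjusted p = 0.000896 by edgeR). Against ENZ 0 genes of the family were higher and 1 lower in ADF+ENZ, and against ADF 3 were higher and 1 lower, with 0 called in the interaction (median -0.02).

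Bcl6 encodes a transcriptional repressor best known from germinal centre B cells and also induced by FOXO factors on fasting. It stood at 43.2, 55.8, 70.1 and 58.5 CPM in Vehicle, 36.4, 42.7, 41.3 and 37.6 in ENZ, 51.4, 43.0, 52.8 and 56.6 in ADF, and 49.5, 65.2, 76.8 and 54.4 in ADF+ENZ. Every ENZ library was below every library of the other 3 groups, narrowly so for the lowest of ADF and Vehicle, and those 3 groups overlapped. Means were 56.9 ± 11.1, 39.5 ± 2.97, 50.9 ± 5.74 and 61.5 ± 12.1 CPM (SD, n = 4).

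Bcl6 fell in ENZ against Vehicle by 0.52 on the log2 scale (SE 0.14, adjusted p = 0.0361 by edgeR). The call held in all 8 other settings but in only 1 of 8 fits without a library: it was lost without ENZ replicate 1 (-0.49), 2 (-0.56), 3 (-0.55) or 4 (-0.50) or Vehicle replicate 2 (-0.53), 3 (-0.41) or 4 (-0.51), with adjusted p up to 0.136. In ADF+ENZ against ENZ, Bcl6 rose by 0.63 (SE 0.14, adjusted p = 0.0375). This call was lost without ADF+ENZ replicate 2 (0.60) or 3 (0.50) or ENZ replicate 1 (0.60), 2 (0.67), 3 (0.66) or 4 (0.61), and under limma-voom (0.52, adjusted p = 0.0701), the covariate (0.59, adjusted p = 0.109) and these 2 groups alone (0.63, adjusted p = 0.0629). The interaction was 0.79 (SE 0.20, adjusted p = 0.0391).

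That interaction of Bcl6 held in 5 of 16 fits without a library. It was lost without ADF replicate 2 (0.72), 3 (0.81) or 4 (0.85), ADF+ENZ replicate 3 (0.66), ENZ replicate 1 (0.76), 2 (0.83), 3 (0.82) or 4 (0.77), or Vehicle replicate 2 (0.80), 3 (0.68) or 4 (0.78), with edgeR adjusted p up to 0.0853. It was also lost under limma-voom (0.62, adjusted p = 0.0709), with the covariate (0.58, adjusted p = 0.94) and among protein-coding genes alone (0.74, adjusted p = 0.0572). The differences of Bcl6 from Vehicle in ADF (-0.16, SE 0.14, adjusted p = 0.503) and in ADF+ENZ (0.11, adjusted p = 0.656) did not pass. B cell marker genes, summed over 7 genes, were at 5.76 to 9.17 CPM for Vehicle, 6.31 to 12.1 for ENZ, 7.28 to 10.4 for ADF and 7.83 to 10.6 for ADF+ENZ, so that their ranges overlapped between Vehicle and ENZ. Bcl6b, a paralog of Bcl6, fell by 1.0 in ADF+ENZ against Vehicle, from 16.2 to 7.93 CPM (SE 0.21, adjusted p = 0.00625).

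Fbxo32 encodes atrogin-1, the F-box subunit of a ubiquitin ligase that FOXO factors induce in wasting muscle. It stood at 29.4, 23.6, 41.3 and 29.4 CPM in Vehicle, 22.1, 27.0, 26.8 and 25.9 in ENZ, 40.5, 37.0, 47.3 and 41.6 in ADF, and 45.7, 34.4, 42.5 and 48.4 in ADF+ENZ. Both fasted groups lay above all ENZ libraries, and they overlapped Vehicle only through Vehicle replicate 3. Means were 30.9 ± 7.45, 25.4 ± 2.28, 41.6 ± 4.30 and 42.8 ± 6.04 CPM (SD, n = 4).

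Fbxo32 rose in ADF+ENZ against ENZ by 0.75 on the log2 scale (SE 0.14, adjusted p = 0.021 by edgeR), a 1.68-fold difference. The call was lost without ADF+ENZ replicate 1 (0.72) or 3 (0.74) or ENZ replicate 3 (0.77) or 4 (0.76), and with the covariate (0.72, adjusted p = 0.067). Against Vehicle it rose in ADF+ENZ by 0.47 (SE 0.14, adjusted p = 0.0343), a call lost without ADF+ENZ replicate 1 (0.44), 3 (0.47) or 4 (0.40) or Vehicle replicate 1 (0.44), 2 (0.36) or 4 (0.45), with the covariate (0.44, adjusted p = 0.0838) and with these 2 groups alone (0.46, adjusted p = 0.0986). In ADF alone the value was 0.43 (SE 0.14, adjusted p = 0.0603), which passed without Vehicle replicate 3 (0.60) and under limma-voom (0.47, adjusted p = 0.0239). In ENZ alone it was -0.28 (SE 0.14, adjusted p = 0.284), and the interaction was 0.32 (SE 0.20, adjusted p = 0.367).

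Skeletal muscle lies under the skin near such tumours and is rich in Fbxo32 and Klf15. The summed level of 16 muscle markers was 14.6 to 107 CPM for Vehicle, 20.7 to 42.1 for ENZ, 44.7 to 71.2 for ADF and 20.7 to 55.0 for ADF+ENZ; ENZ and ADF did not overlap, and 3 of the 16 genes were at 0 throughout ENZ. Most of each sum came from Ttn and Neb, at means of 25.9 and 9.14 CPM. Of the 16 markers 10 were tested, with 0 called in any of the 6 comparisons. Their median log2 change from Vehicle was -0.68 (ENZ), -0.29 (ADF) and -0.44 (ADF+ENZ). The median sums went the other way, at 25.8 CPM for Vehicle and 35.2, 65.2 and 31.9 for the treated groups in that order. The median log2 change was 0.56 for ADF+ENZ against ENZ, -0.49 for ADF+ENZ against ADF and 0.53 for the interaction. The part of muscle RNA in the Fbxo32 values was not tested. In tumour tissue, more cells of a type and more RNA per cell cannot be told apart. Of 6 tested ligase partners of atrogin-1, 0 were called in ENZ, ADF or ADF+ENZ against Vehicle, in ADF+ENZ against ENZ or in the interaction, with medians between -0.23 and 0.17 in the pairwise comparisons and 0.32 in the interaction. Against ADF, 2 were higher in ADF+ENZ: Rbx1, the RING subunit, by 0.51 (SE 0.11, adjusted p = 0.00669 by edgeR) and Skp1, the adaptor, by 0.37 (SE 0.0894, adjusted p = 0.0119), with 0.12 and 0.05 under the covariate.

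Txnip encodes a thioredoxin-binding protein that also lowers glucose uptake, and its gene responds to glucose through MondoA as well as to FOXO factors. It stood at 119, 82.8, 134 and 98.9 CPM in Vehicle, 136, 97.3, 67.5 and 57.3 in ENZ, 236, 142, 135 and 156 in ADF, and 104, 99.3, 72.7 and 116 in ADF+ENZ. The 4 ADF libraries were above all Vehicle and all ADF+ENZ libraries, though ADF replicate 3 lay only just above the highest Vehicle library, and ENZ replicate 1 reached the ADF range. Means were 109 ± 22.6, 89.5 ± 35.3, 167 ± 46.7 and 98.1 ± 18.3 CPM (SD, n = 4).

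No difference of Txnip passed the test. It was 0.62 (SE 0.26, adjusted p = 0.154 by edgeR) in ADF against Vehicle and -0.77 (SE 0.27, adjusted p = 0.0631) in ADF+ENZ against ADF. DESeq2 called the latter (-0.76, adjusted p = 0.0127), as did edgeR on these 2 groups alone (-0.77, adjusted p = 0.0322). Without ADF replicate 1, the highest library, the 2 values were 0.41 and -0.55. In ENZ and in ADF+ENZ the log2 differences from Vehicle were -0.29 (SE 0.27) and -0.15 (SE 0.26), and the interaction was -0.48 (SE 0.37, adjusted p = 0.49).

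Of 13 genes of the MondoA and thioredoxin group, 0 were higher and 2 lower in ENZ, 1 higher and 3 lower in ADF, and 0 higher and 3 lower in ADF+ENZ, all against Vehicle. Hk2, the hexokinase that traps glucose in the cell, fell by 0.60 (SE 0.12), 0.70 (SE 0.12) and 0.61 (SE 0.12) in ENZ, ADF and ADF+ENZ, from 111 CPM to 73.0, 67.9 and 72.5 (edgeR adjusted p = 0.00545, 0.00191 and 0.00311; 0.325 in ADF with the covariate). Slc2a1, the glucose transporter GLUT1, whose uptake TXNIP opposes, fell by 1.46 in ADF (SE 0.24, adjusted p = 0.00315, and 0.413 with the covariate), from 169 to 61.3 CPM. Its means in ENZ and ADF+ENZ were 89.9 and 87.5 CPM, and the ranges of both groups lay below that of Vehicle. Against ENZ 0 of 13 were called, against ADF 2 were higher and 1 lower, and in the interaction 2 were higher. Medians of the group lay between -0.16 and 0.09 in the pairwise comparisons and at -0.02 in the interaction.

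Sesn1 encodes sestrin 1, a leucine sensor that restrains mTORC1 through GATOR2. It stood at 24.8, 24.4, 35.7 and 28.8 CPM in Vehicle, 28.0, 24.0, 24.0 and 30.8 in ENZ, 27.3, 26.5, 31.0 and 38.5 in ADF, and 30.7, 25.8, 30.5 and 29.3 in ADF+ENZ. All group ranges overlapped, and no pairwise log2 difference exceeded 0.12 in size. Of 12 other sestrin and GATOR genes, 1 was higher in ENZ, 1 higher and 1 lower in ADF, 2 higher and 1 lower in ADF+ENZ against Vehicle, 1 higher against ENZ, 2 higher against ADF and 0 in the interaction, with medians between -0.03 and 0.14 in the pairwise comparisons and 0.15 in the interaction. In ADF+ENZ against Vehicle, Castor2, a relative of the arginine sensor, rose by 0.47 (SE 0.10, edgeR adjusted p = 0.0064) and Nprl3, a GATOR1 subunit, by 0.55 (SE 0.12, adjusted p = 0.00782).

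Klf15 encodes a Krüppel-like factor that glucocorticoids and fasting induce in liver and muscle. It was hardly detected: 12, 11, 12 and 15 counts in the Vehicle libraries, 11, 11, 15 and 16 in ENZ, 24, 9, 16 and 10 in ADF, and 5, 19, 6 and 27 in ADF+ENZ. These are 0.739 ± 0.0876, 0.825 ± 0.144, 1.11 ± 0.623 and 0.854 ± 0.391 CPM (SD, n = 4). The ADF value was 0.55 (SE 0.38, adjusted p = 0.376 by edgeR) above Vehicle on the log2 scale and did not pass the test, with counts this low and this uneven.

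Other Krüppel-like factors were far more abundant. Of 12 tested, 5 were lower in ENZ, 1 was lower in ADF and 1 was lower in ADF+ENZ against Vehicle, with 0 higher. In ADF+ENZ 2 were higher against ENZ and 1 against ADF, and 3 were higher in the interaction, with medians between -0.30 and 0.20 in the pairwise comparisons and 0.23 in the interaction. Klf5 fell by 0.97 (SE 0.20), 0.89 (SE 0.20) and 1.09 (SE 0.20) in ENZ, ADF and ADF+ENZ, from 63.0 CPM to 32.3, 33.9 and 29.5 (edgeR adjusted p = 0.00982, 0.0138 and 0.003; 0.41 in ADF with the covariate). Klf13 fell by 0.53 in ENZ (SE 0.0981, adjusted p = 0.00367), from 155 to 108 CPM. Klf9, a glucocorticoid-induced factor, stood at 196 ± 20.0 CPM for Vehicle, 141 ± 36.2 for ENZ, 138 ± 37.7 for ADF and 246 ± 20.7 for ADF+ENZ (SD, n = 4). It rose by 0.83 in ADF+ENZ against ADF (SE 0.17, adjusted p = 0.0072), and its interaction was 1.31 (SE 0.25, adjusted p = 0.0141). With the covariate these were 0.44 (adjusted p = 1) and 0.90 (adjusted p = 0.922).

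**Figure D3:**
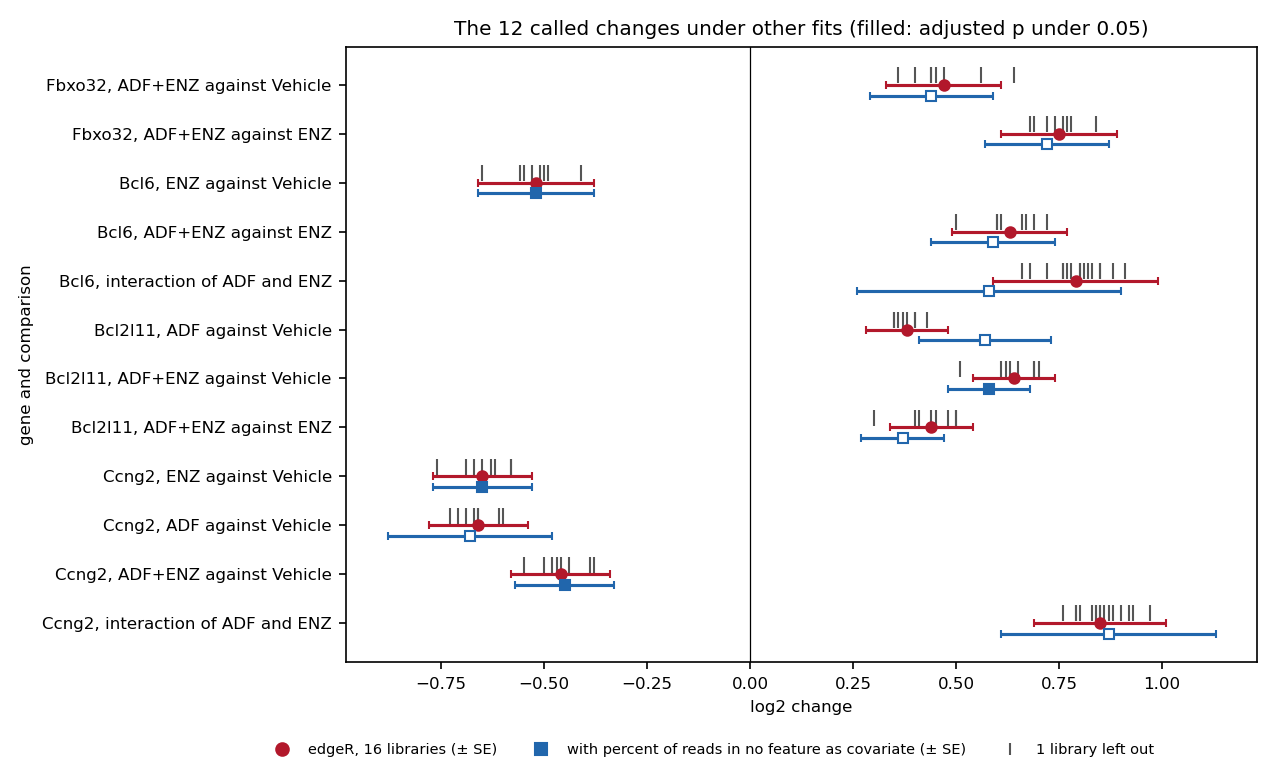
Each of the 12 called changes (rows) with its log2 value ± SE in the fit of all libraries (red circles), its value with the no-feature share as a covariate (blue squares) and its values with 1 library left out (grey ticks); filled symbols have an adjusted p under 0.05. No tick or square crosses 0, and blue squares stay filled for Bcl2l11 and Ccng2 in ADF+ENZ against Vehicle and for Bcl6 and Ccng2 in ENZ against Vehicle.

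Other known FOXO targets were examined as a list of 43 genes, of which 39 were tested. Pck1, G6pc, Igfbp1 and Ppargc1a, targets of liver, had 47, 1, 6 and 34 counts in all libraries together and did not pass the filter. Against Vehicle, 2 of 39 were higher and 4 lower in ENZ, 2 higher and 5 lower in ADF, and 2 higher and 3 lower in ADF+ENZ. Against ENZ 2 were higher and 0 lower in ADF+ENZ, against ADF 0 were called, and in the interaction 1 was higher. The medians lay between -0.19 and 0.14 in the pairwise comparisons, where those of all genes lay between -0.02 and 0.01, and at 0.24 in the interaction.

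The clearest of these targets was Pik3ip1, which encodes an inhibitor of PI3K and so acts upstream of FOXO too. It stood at 51.0 ± 6.16 CPM for Vehicle, 22.6 ± 5.76 for ENZ, 35.2 ± 5.36 for ADF and 30.8 ± 2.87 for ADF+ENZ (SD, n = 4). It fell by 1.19 in ENZ (SE 0.15, adjusted p = 0.000121 by edgeR) and by 0.73 in ADF+ENZ (SE 0.14, adjusted p = 0.0037), and its interaction was 1.0 (SE 0.20, adjusted p = 0.0181, and 0.59 with the covariate). As with Ccng2, the Pik3ip1 mean of ADF+ENZ was not below that of ENZ alone. Unlike Ccng2, it was below that of ADF alone, with overlapping ranges. Bnip3, a mitophagy gene that hypoxia also induces, fell by 1.66 in ADF (SE 0.28, adjusted p = 0.00376, and 0.324 with the covariate) and by 1.43 in ADF+ENZ (SE 0.28, adjusted p = 0.00541). The Bnip3 mean in ENZ was 23.1 CPM against 53.5 in Vehicle, and these 2 ranges did not overlap. Ccnd2, a cyclin that FOXO factors repress, fell by 2.15 in ADF+ENZ (SE 0.38, adjusted p = 0.00398), from 163 ± 58.0 to 36.3 ± 14.2 CPM (SD, n = 4). The Ccnd2 means in ENZ and ADF were also below that of Vehicle, at 53.3 and 61.8 CPM.

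Among 17 tested cyclins, CDKs and CDK inhibitors around Ccng2 and Cdkn1b, 0 were higher and 2 lower in ENZ, 0 higher and 2 lower in ADF, and 1 higher and 3 lower in ADF+ENZ against Vehicle. Ccnd2 is in this list as well. Ccni, a relative of the cyclins G, fell by 0.38 in ADF+ENZ (SE 0.0807, adjusted p = 0.00531 by edgeR), from 367 to 282 CPM. Against ENZ 0 were called, against ADF 3 were higher, and in the interaction 0 were called, with medians between -0.09 and 0.18 in the pairwise comparisons and 0.08 in the interaction.

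Regulators upstream of FOXO were 34 genes, all tested. In ENZ 0 were higher and 1 lower, in ADF 0 higher and 3 lower, and in ADF+ENZ 2 higher and 3 lower, against Vehicle; 2 were higher against ENZ, 7 higher against ADF, and 1 higher in the interaction, with medians between -0.09 and 0.12 in the pairwise comparisons and 0.16 in the interaction. With the covariate none of these genes was called against ADF or in the interaction, and the values against ADF were -0.10 for Prmt1 and -0.16 for Ywhae, another 14-3-3 gene, in place of 0.42 for each. Akt2, a kinase that phosphorylates FOXO, fell by 0.36 in ADF (SE 0.0663, adjusted p = 0.0031 by edgeR), from 128 to 99.1 CPM. Ywhaq, the 14-3-3 protein theta, of a family that holds phosphorylated FOXO in the cytoplasm, fell by 0.46 in ADF (SE 0.0887, adjusted p = 0.00465) and by 0.45 in ADF+ENZ (adjusted p = 0.00342). With the covariate the ADF values were -0.29 and -0.24 (adjusted p = 0.341 and 0.569). Prmt1, an arginine methyltransferase that shields FOXO1 from AKT, rose by 0.53 in ADF+ENZ against Vehicle (SE 0.12, adjusted p = 0.00726), from 52.6 to 76.0 CPM.

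Genes that fasting induces in liver and muscle numbered 30, of which 21 were tested. Against Vehicle, 0 were higher and 4 lower in ENZ, 1 higher and 3 lower in ADF, and 2 higher and 3 lower in ADF+ENZ; 1 was higher against ENZ, 1 against ADF and 1 in the interaction, with medians between -0.27 and 0.23 in the pairwise comparisons and 0.61 in the interaction, where that of all genes was -0.02. Lpin1, a phosphatidate phosphatase that coactivates fasting genes, fell by 0.75 in ENZ (SE 0.14, adjusted p = 0.00356 by edgeR), from 39.3 to 23.5 CPM. Cebpd, a factor of the acute and fasting response, fell by 1.15 in ADF+ENZ (SE 0.26, adjusted p = 0.0123), from 38.8 to 17.4 CPM. Its means in ENZ and ADF were also below that of Vehicle, at 19.7 and 19.3 CPM. The mean of Cpt1a went the other way in both fasted groups. It was 206 ± 33.7 CPM for Vehicle, 201 ± 29.5 for ENZ, 289 ± 16.9 for ADF and 324 ± 38.2 for ADF+ENZ (SD, n = 4). These means are a description, given without a test and without the covariate.

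**Figure D4:**
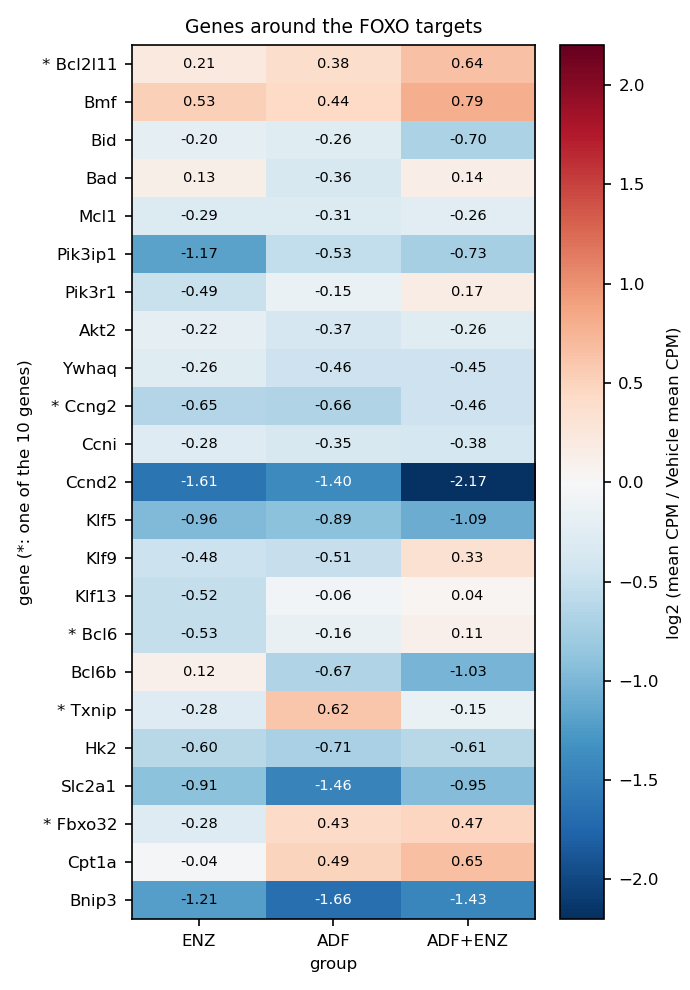
Log2 ratio of each treated group's mean CPM to the Vehicle mean (colour, number in each cell) for the 5 genes of the set marked * and for 18 genes named in the text or by the naming rule, 1 row a gene. Bmf and Bcl2l11 have positive ratios in all 3 groups. Ccng2, Pik3ip1, Ccnd2, Klf5, Hk2, Slc2a1, Bnip3, Bid, Mcl1, Akt2, Ywhaq and Ccni have negative ratios in all 3.

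Across the 16 libraries, on log2 CPM, the genes most like each of the 10 were found by Pearson correlation, as a description in which group differences and library make-up both enter. Ccng2 was most like Nfil3 (r = 0.90), Arl4a (0.89) and Rhbdd1 (0.89). Bcl2l11 was most like Agap3 (0.97), Nol6 (0.94) and Maml3 (0.94), and Bcl6 most like Ppp4r2 (0.89), Cep120 (0.87) and Afdn (0.85). Fbxo32 was most like Ctdsp2 (0.87), Cpt1a (0.85), the fatty acid transport enzyme of mitochondria, and Tlr7 (0.85).

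Txnip was most like Galnt11 (r = 0.91), Ace (0.90) and Etfbkmt (0.90), and Cdkn1b most like Katnbl1 (0.87), Capn1 (0.85) and the fibroblast gene Dcn (0.84). Foxo1 was most like Id4 (0.93), Rtl5 (0.92) and Vcpip1 (0.89), and Foxo3 most like Cand1 (0.91), Sh3pxd2a (0.83) and R3hdm2 (0.80). The values were lowest for Sesn1, at 0.76 for Washc3, 0.74 for Mx1 and 0.72 for Wars2, while the sparse counts of Klf15 gave 0.84 for Resf1, 0.80 for Zfp644 and 0.78 for Rsbn1. Within the set, the highest values over 16 libraries were 0.72 for Foxo3 with Bcl6, 0.70 for Ccng2 with Cdkn1b and 0.62 for Fbxo32 with Bcl2l11, and the lowest was -0.41 for Bcl2l11 with Cdkn1b.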

How the data were processed

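RNA from 16 tumours was sequenced in read pairs. The authors deposited 1 table of unnormalized counts, with genes in rows and libraries in columns, checked to hold whole numbers. Per the submitters' processing notes, Trim Galore, HISAT2, featureCounts and DESeq2 were used, with the builds mm39 and GRCh38 and no role or version for each; no strand setting is given, so a gene's reads cannot be separated from those of an overlapping antisense gene. The last 5 entries name no gene and were left out of library sizes; per the file headers they carry the names htseq-count writes. Of 55414 Ensembl IDs, 52081 matched a symbol in GENCODE or NCBI tables, and IDs without one held 3.51% of counts. Exon lengths are from GENCODE on GRCm38.

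Groups came from the treatment labels, and the numbers of replicates only follow accession order. Pairs of replicates differed by more than sampling noise (chi-square per degree of freedom 5.79 to 38.6 over 24 pairs). Counts were filtered (edgeR 4.0.16 filterByExpr, minimum 10 and total 15) and scaled by TMM, and 1 quasi-likelihood model with a mean per group was fitted to all 16 libraries in R 4.3.3, with 12 residual degrees of freedom. P-values were adjusted by Benjamini-Hochberg over all 18946 genes in each of 6 comparisons, and a gene was called at an adjusted p under 0.05. The interaction is the ADF change under ENZ minus the ADF change without it. The script was tested on simulated data.

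Alternatives were DESeq2 1.42.0, its size factors, limma 3.58.1 (voom with sample weights), 2 other filters, the no-feature percent of reads as covariate, protein-coding genes alone, the 2 groups compared alone, and each library left out. The 10 genes, the 11 gene lists and the 9 marker lists were chosen with earlier results of these data known. From each list the rule named up to 3 called genes per comparison with the smallest p and at least 1 CPM; values are given mainly for those whose call held in every fit without 1 library. The 3 most alike genes had a mean of at least 5 CPM. A few genes and 1 gene list are not reported here. Library depth limits the precision of low genes such as Klf15.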

Additional observations from a re-analysis of the deposited data

Results flagged for a closer look

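The change made by ADF differed between mice with and without ENZ for 10 of the 177 tested genes of the set and its lists, by the interaction term in edgeR, where 587 of all 18946 genes (3.1%) were called. On the log2 scale the difference was 0.85 for Ccng2 and 0.79 for Bcl6 among the 10 genes of the set. Among related genes it was 1.0 for Pik3ip1, 0.80 for Pik3r1, 1.18 for Mt1, 0.69 for Hk2, 1.42 for Slc2a1, 1.31 for Klf9, 1.16 for Klf4 and 0.62 for Klf13. The calls of Ccng2, Pik3ip1, Mt1 and Klf9 held in all 16 fits without 1 library, while those of Bcl6, Pik3r1, Hk2, Slc2a1, Klf4 and Klf13 held in 5, 9, 8, 6, 14 and 11 of 16. None of the 10 was called with the no-feature percent of reads as covariate. In 40 checks of single libraries (10 genes in 4 groups), none lay far enough from the others of its group to pass Dixon's 95% value.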

How the results depend on the processing

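The number of the 10 genes past the threshold was 2 in ADF against Vehicle and fell to 0 with the no-feature percent of reads as covariate (1 to 3 when a library was left out). ADF+ENZ against ENZ gave 3, with 0 under the covariate, 1 with the 2 groups alone and 0 to 3 without a library. ADF+ENZ against ADF gave 0, with 1 under DESeq2 and with the 2 groups alone and 0 to 1 without a library. The interaction gave 2, with 1 under limma-voom, 0 with the covariate, 1 among protein-coding genes alone and 1 to 2 without a library. ENZ against Vehicle gave 2 (1 to 2 without a library) and ADF+ENZ against Vehicle 3 (2 to 4). The cause of these shifts was not tested. Counts over all genes moved as well: 1707 in ADF against Vehicle became 6 with the covariate and 1119 among protein-coding genes, 3081 in ADF+ENZ against ADF became 0 and 1922, 2369 in ADF+ENZ against Vehicle became 1579 with the covariate, 206 in ADF+ENZ against ENZ became 673 under DESeq2, 43 with the covariate and 54 with the 2 groups alone, 1028 in ENZ against Vehicle became 1588 under DESeq2 and 1655 under limma-voom, and 587 in the interaction became 1331 under DESeq2, 0 with the covariate and 350 among protein-coding genes. In ADF+ENZ against ADF the covariate turned the sign of Hdac3 (-0.00747), Prmt1 (-0.099), Seh1l (-0.022) and Ywhae (-0.159). For the 10 genes, in comparisons where any fit made a call, 103 of 152 values kept their side of the threshold without a library and 116 of 134 in the other settings, and none changed sign in a call. No paired analysis was possible because the labels give no replicate numbers shared between groups. Klf15, with 5 to 27 counts a library, is limited by depth.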
